A study of Mus musculus with 10 samples.

Results

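The inhibitors of differentiation Id1, Id2, Id3 and Id4 were followed across 10 Illumina bead arrays of mouse cells. All probes carrying one of the 4 symbols were taken, which gave 5 probes (2 for Id2) among the probes of 16593 named genes. The arrays fell into 5 groups of 2, all of strain C57BL/6. These were pericytes (PC), contractile cells that wrap capillaries, cells titled OPC whose cell type field reads oligodendrocyte, and progenitors of the oligodendrocyte lineage induced from pericytes (iOPC) after 5, 15 or 25 passages. Age, sex, culture conditions and the induction agents are not given in the sources used here. The labels do not say whether the arrays of a group came from separate cultures, so the p-values cover only the spread between these arrays.

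Id proteins carry a helix-loop-helix (HLH) dimerisation domain but lack the basic region that contacts DNA. They bind E proteins such as Tcf4 and Tcf12 and keep them from pairing with lineage basic HLH (bHLH) factors, so that the pair cannot bind its sites. In many cell types their genes are direct targets of bone morphogenetic protein (BMP) signalling through Smad1 and Smad5. In rodent oligodendrocyte precursors Id2 and Id4 are known to hold back differentiation, and Id1 and Id3 are known from mouse vessels, where they take part in angiogenesis.

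The deposited data give every probe a signal and also a log2 value normalised by the authors, and the 2 tables could not be joined by their column headings. Profiles were set against each other over 9403 probes that all arrays detected. Under the heading PC the mean Pearson r across probes was 0.982. The signal arrays headed iOPC passage 15 came closest to the OPC columns of the value table (0.981) and stood at 0.843 with the passage 15 columns. Under the same heading r was 0.847 for OPC, 0.878 for passage 5 and 0.866 for passage 25. Signal arrays headed OPC and passage 5 came closest to the passage 25 columns of the value table (0.878 and 0.901). Those headed passage 25 came closest to their own heading. None of these groups came near the r of PC with any value heading. The defining OPC markers Nkx2-2 and Olig2 were detected on 0 and 1 of the 2 signal arrays headed OPC and on both headed iOPC passage 15, while their highest values stood under OPC in the value table. The other 6 tested OPC markers (Olig1, Pdgfra, Cspg4, Gpr17, Bcas1 and Bcan) were detected on both signal arrays headed OPC, and of the 8 tested 7 were called higher there than in PC. Of 10 pericyte markers 6 were tested, and Rgs5, Kcnj8, Abcc9 and Des were not detected on 2 arrays. Headings were kept as deposited, and every result is given from both tables, the signal table first. Only PC is a heading that both tables fill alike. Between 45.7% and 49.2% of 25697 probes were detected per array, at a detection p-value under 0.01, and replicates correlated at r from 0.995 to 0.997 in the signal table and from 0.941 to 0.993 in the value table.

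The genes lie on different chromosomes in GRCm38.p6, with Id1 at chromosome 2, 152736251 to 152737410, Id2 at chromosome 12, 25093799 to 25096092, Id3 at chromosome 4, 136143822 to 136145392, and Id4 at chromosome 13, 48261116 to 48266028. RefSeq promoter sequences, from 250 bases before to 50 after the start, were matched for 3 of the 4 genes, Id2, Id3 and Id4. They are shown because Id2 was called higher than PC in every group while Id3 and Id4 mostly were called lower, so that their start regions can be set side by side. Capitals mark CCAAT and GGCGCC on either strand (a CCAAT on the other strand reads ATTGG).

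Id2 (chr12:25096043-25096342, minus strand): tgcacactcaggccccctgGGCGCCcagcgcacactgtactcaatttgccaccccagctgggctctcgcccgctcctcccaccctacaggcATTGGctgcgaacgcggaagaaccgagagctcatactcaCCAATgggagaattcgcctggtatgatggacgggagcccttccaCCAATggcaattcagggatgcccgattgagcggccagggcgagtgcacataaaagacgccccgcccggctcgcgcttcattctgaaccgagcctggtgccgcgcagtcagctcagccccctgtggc
Id3 (chr4:136143572-136143871, plus strand): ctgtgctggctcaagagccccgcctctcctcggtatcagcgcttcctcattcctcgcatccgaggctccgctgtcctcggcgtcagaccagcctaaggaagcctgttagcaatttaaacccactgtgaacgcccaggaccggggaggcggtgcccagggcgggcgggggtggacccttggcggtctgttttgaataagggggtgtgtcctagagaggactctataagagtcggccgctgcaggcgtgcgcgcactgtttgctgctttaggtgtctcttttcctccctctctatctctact
Id4 (chr13:48260866-48261165, plus strand): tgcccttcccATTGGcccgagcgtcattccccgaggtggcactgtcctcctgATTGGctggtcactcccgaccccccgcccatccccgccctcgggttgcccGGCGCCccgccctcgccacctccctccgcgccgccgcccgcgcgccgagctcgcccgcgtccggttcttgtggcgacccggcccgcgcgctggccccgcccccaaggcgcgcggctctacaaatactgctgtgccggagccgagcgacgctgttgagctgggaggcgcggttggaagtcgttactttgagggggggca

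The window of Id2 held 3 CCAAT boxes, that of Id4 held 2 and that of Id3 held 0, against 37.4% of 32851 promoters of the same length with at least 1. The 3 boxes of Id2 began 159, 120 and 76 bases before the start. GGCGCC occurred once in the windows of Id2 and Id4 and not in that of Id3 (11.9% of all promoters). The GC box GGGCGG, also searched on both strands and not marked, occurred 1 time in Id2, 2 times in Id3, where the pair overlap each other, and 5 times in Id4 (35.7% of all promoters). The E box CANNTG, the general site of bHLH pairs, was found once in Id2 and not in the other windows, while 72.3% of all promoters held it. GC content was 63.3%, 60% and 73.3%, against a median of 52.7%. These matches describe letters in a window and not factor binding.

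Id1, the member best known from vascular cells, fell against PC in every group and in both tables. In the signal table its normalised log2 levels were 9.59 and 9.68 on the PC arrays, 7.94 and 7.99 on OPC, 5.43 and 5.30 on passage 5, 7.26 and 7.23 on passage 15, and 4.76 and 5.16 on passage 25. The groups did not overlap, and the lower passage 25 array was not above background (detection p-value 0.0238), so Id1 was detected on 9 of 10 arrays. The value table held 9.81 and 9.94 for PC, 7.58 and 7.35 for OPC, 7.10 and 7.58 for passage 5, 5.81 and 5.77 for passage 15 and 5.42 and 5.96 for passage 25, so the columns headed OPC and passage 5 overlapped there. Averaged over passages, iOPC lay 13.8-fold below PC in the signal table (log2 change -3.78, SE 0.10, limma adjusted p = 1.27e-10) and 12.2-fold below it in the value table (-3.61, SE 0.19, limma adjusted p = 2.20e-06). OPC lay 3.19-fold (-1.67) and 5.31-fold (-2.41) below PC. In bulk RNA, fewer cells of a type and less RNA per cell cannot be told apart.

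Id3, which acts beside Id1 in vessels, also lay below PC in all iOPC groups. Its signal-table levels were 9.33 and 9.42 in PC, 9.69 and 9.66 in OPC, 7.34 and 7.27 at passage 5, 8.53 and 8.55 at passage 15 and 8.04 and 7.98 at passage 25. OPC was the group above PC here, by 0.29 (SE 0.07, limma adjusted p = 0.00543), a call that was lost when arrays were scaled by their median (0.20, limma adjusted p = 0.130) or left unscaled (0.25, limma adjusted p = 0.124). The value table put the same heading below PC, at -0.85 (limma adjusted p = 0.0168). Its values were 9.13 and 9.06 in PC, 7.997 and 8.50 in OPC, 6.33 and 5.84 at passage 5, 5.39 and 5.08 at passage 15 and 5.12 and 4.99 at passage 25. That OPC call was lost without either PC array or without OPC replicate 1 (with any 1 array left out the change ran from -1.10 to -0.60, with limma adjusted p up to 0.121). The mean of the passages lay below PC by a log2 change of -1.43 (SE 0.06) and of -3.64 (SE 0.19), or 2.69-fold and 12.5-fold.

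Id2, known in mice for holding oligodendrocyte precursors undifferentiated, rose against PC in all 4 groups of both tables. The signal table put it at 8.25 and 8.24 in PC, 10.54 and 10.61 in OPC, 10.43 and 10.49 at passage 5, 10.24 and 10.11 at passage 15, and 10.41 and 10.31 at passage 25. PC stood apart, and the other 8 arrays spanned 10.11 to 10.61. The value table gave 7.97 and 7.92 in PC, 9.98 and 9.92 in OPC, 8.77 and 8.96 at passage 5, 9.09 and 9.07 at passage 15 and 8.82 and 8.63 at passage 25, with OPC above the rest. OPC lay 5.03-fold and 4.02-fold above PC (2.33, SE 0.08, limma adjusted p = 1.85e-09, and 2.01, SE 0.15, limma adjusted p = 1.21e-05). The mean over passages lay 4.26-fold (2.09) and 1.92-fold (0.94) above PC. A second Id2 probe rose alike in a fit over all 14539 probes, by 2.10 in OPC and 1.99 in iOPC in the signal table and by 2.75 and 1.92 in the value table, all called. Its iOPC change of 1.92 in the value table was larger than the 0.94 of the first probe.

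Id4, the other member linked to oligodendrocyte precursors in rodents, differed most between the tables. Its signal-table levels were 6.60 and 6.63 in PC, 6.44 and 6.43 in OPC, 5.08 and 5.28 at passage 5, 7.33 and 7.20 at passage 15 and 5.41 and 5.14 at passage 25. Passage 15 was the only group above PC, and passages 5 and 25 overlapped each other below it. Value-table levels were 6.27 and 6.44 in PC, 6.78 and 6.65 in OPC, 1.95 and 1.23 at passage 5, 1.31 and 1.67 at passage 15 and 2.58 and 3.04 at passage 25. All 6 iOPC columns there lay below the column median of 3.29. Genes that no PC array detected stood in a like range in the PC columns of the value table, as Olig1 (1.77 and 2.10) and Mbp (2.79 and 2.99). The size of the Id4 changes in iOPC there, and its differences between passages, rest on levels of that range. OPC did not pass the test against PC in either table (-0.18, 95% interval -0.42 to 0.06, limma adjusted p = 0.155, and 0.36, 95% interval -0.28 to 0.99, limma adjusted p = 0.307). Passage 15 lay above PC by 0.65 (limma adjusted p = 0.000263) in the signal table and below it by a log2 change of -4.87 in the value table. The mean over passages was -0.71 and -4.39, and the first of these became -1.38 without both arrays headed passage 15 and -0.35 without both headed passage 5.

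**Figure D1:**
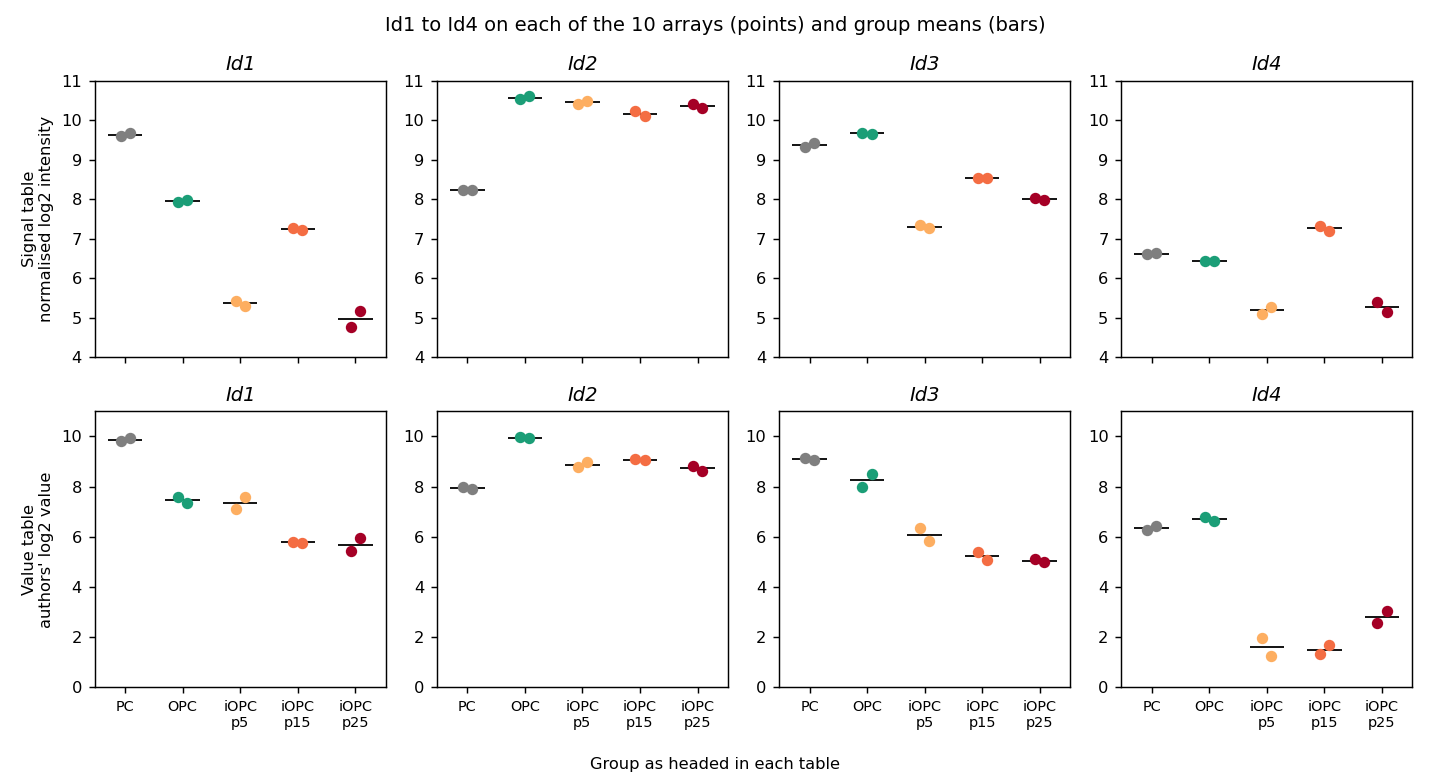
Level of each Id gene on every array (log2, upper row the normalised signal, lower row the authors' value table), with 1 point per array and a bar at the mean of each group of 2. Id1 and Id3 lie highest or nearly so in PC, Id2 lies lowest in PC, and Id4 is high at passage 15 in the signal row (7.20 and 7.33) but low there in the value row (1.31 and 1.67).

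Against PC, the 4 groups and the 2 tables give 8 comparisons per gene, which share the PC columns. The 8 are not separate, since the signal columns headed passage 15 matched the value columns headed OPC (mean r 0.981). Id1 was called lower in 8 of 8 (log2 changes from -4.68 to -1.67) and Id2 higher in 8 of 8 (0.78 to 2.33). Id3 was called lower in 7 and higher in 1, and Id4 lower in 5, higher in 1 and not called in 2. The arrays of the groups did not overlap in any of the 8, also where the gene was not called. With 2 arrays a group this was common, at 82.7% of all genes for OPC, 80.9% for passage 5, 86.2% for passage 15 and 83.6% for passage 25 in the signal table, and 85.6%, 75.3%, 80.6% and 81.5% in the value table. Calls were common among all 9778 tested genes, at an adjusted p under 0.05: the share called was 67.8% and 56.4% (signal and value table) for OPC, 66.5% and 54.3% for passage 5, 74% and 53.6% for passage 15, 72.4% and 53.4% for passage 25, and 76.4% and 59.7% for the mean over passages. In OPC against PC, 35% of genes were called higher and 32.8% lower in the signal table, and 30.6% and 25.8% in the value table. For the mean over passages these shares were 42.3% and 34.1%, and 33% and 26.8%. With shares this high, a call alone sets no Id gene apart. For iOPC against PC in the signal table, 2.26% of genes had a larger absolute change than Id1, 8.48% than Id2, 15.7% than Id3 and 36.4% than Id4. The corresponding shares in the value table were 7.20% for Id1, 40.2% for Id2, 7.08% for Id3 and 4.98% for Id4.

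**Figure D2:**
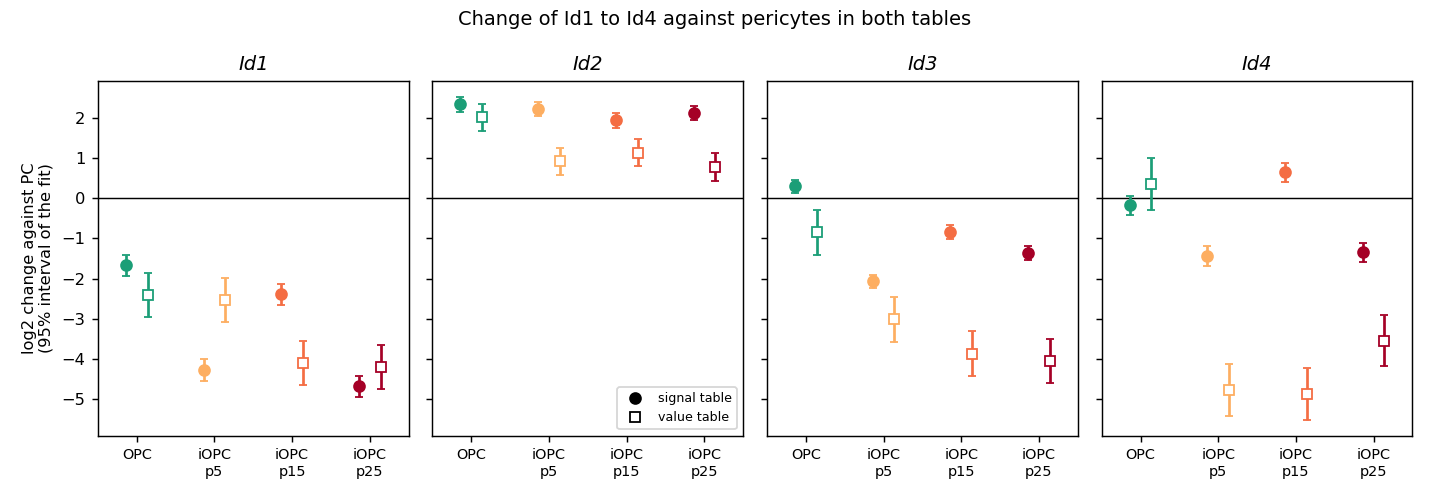
Log2 change of each Id gene against PC in OPC and in iOPC at each passage, with 95% intervals from limma, for the signal and the value table. Id1 lies below 0 and Id2 above 0 throughout, while Id3 in OPC (0.29 and -0.85) and Id4 at passage 15 (0.65 and -4.87) lie on opposite sides in the tables.

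The headings that matched across the tables gave like changes for the family. These columns were picked by the match of their whole profiles (mean r 0.981, and 0.982 for PC). Like changes follow from that match and are no separate result. Signal columns headed passage 15 stood at -2.39 for Id1, 1.93 for Id2, -0.84 for Id3 and 0.65 for Id4 against PC. Value columns headed OPC stood at -2.41, 2.01, -0.85 and 0.36 in the same order. The last of these did not pass the test, and the calls of the other 3 genes had the same direction. Under that pair of columns Id1 and Id3 were lower and Id2 higher than in PC, whichever heading is right.

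Compared with OPC, iOPC carried less of all 4 genes on average over passages, and every gene passed in both tables, where 56.8% and 55.3% of genes did (31.2% higher and 25.6% lower in the signal table, 28.4% and 26.9% in the value table). Id1 lay below OPC by a log2 change of -2.11 and -1.20, Id3 by -1.72 and -2.79, and Id4 by -0.53 and -4.75. The share of genes with a larger absolute change than Id1 was 1.49% in the signal and 27.1% in the value table. It was 2.59% and 9.0% for Id3, 23.3% and 3.12% for Id4, and 53.2% and 30.6% for Id2. Id2 differed little in the signal table (-0.24, SE 0.07, limma adjusted p = 0.00981), a call lost without OPC replicate 2 (-0.21), without both arrays headed passage 15 (-0.17) and with the mean over both probes (-0.18). Its value-table change from OPC was -1.06 (SE 0.12). Id4 in the signal table was above OPC at passage 15 (0.83) and below it at passages 5 (-1.26) and 25 (-1.17), and its mean lost the call without both arrays headed passage 5 (-0.16).

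By single passages against OPC, 3 of 4 genes passed at passage 5 in each table, where 39.9% and 49.1% of genes did. Id2 was the exception in the signal table (-0.11, 95% interval -0.29 to 0.07) and Id1 in the value table (-0.13, 95% interval -0.67 to 0.42). At passage 15 all 4 passed (67.1% and 48.3% of genes), and at passage 25 all 4 passed as well (55.7% and 48.2%). The Id2 call at passage 25 in the signal table (-0.21, limma adjusted p = 0.0438) was kept in 10 of 22 alternatives, with changes from -0.61 to -0.12 and limma adjusted p up to 0.393. Leaving out any 1 array but passage 15 replicate 1 or passage 25 replicate 1 ended it. In order of level, Id1 ran in the signal table from PC through OPC, passage 15 and passage 5 to passage 25, and every neighbour differed. By the value table the order was PC, OPC, passage 5, passage 15 and passage 25, where OPC did not differ from passage 5 nor passage 15 from passage 25. Id3 ran from OPC through PC, passage 15 and passage 25 to passage 5 in the signal table, each step called, and from PC through OPC to the passages in the value table. For Id2 the groups OPC, passage 5 and passage 25 followed each other in the signal table without a called step, and in the value table the 3 passages did not differ from each other.

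Across passages the tables disagreed on the course of the family. An F test over the 3 passages passed for all 4 genes in the signal table (limma adjusted p = 6.37e-08 for Id1, 0.0209 for Id2, 3.32e-07 for Id3 and 3.11e-08 for Id4), where 81.4% of genes passed. It passed for Id1 (limma adjusted p = 0.0097) and Id4 (0.0384) in the value table, where 8.94% of genes did, and not for Id2 (0.266) or Id3 (0.0593). In the signal table Id1, Id3 and Id4 were highest at passage 15. From passage 5 to 15 they rose by 1.88, 1.23 and 2.08, Id2 fell by a log2 change of -0.29, and 62.8% of genes were called. The Id2 call was lost without passage 5 replicate 2 (-0.25), without passage 15 replicate 2 (-0.23), with median scaling (-0.18) and with no normalisation between arrays (-0.094, limma adjusted p = 0.615). From passage 15 to 25 they fell by -2.29, -0.53 and -1.99, Id2 stood at 0.18 (limma adjusted p = 0.0607), and 71.8% of genes were called. By the value table Id1 fell from passage 5 to 15 (-1.55, limma adjusted p = 0.00931, and up to 0.0542 without either passage 15 array), Id2, Id3 and Id4 did not pass (0.21, -0.85 and -0.10), and 10.3% of genes were called. None of the 4 passed between passages 15 and 25 there, where 0.123% of genes did, although Id4 stood at 1.32 (95% interval 0.68 to 1.96 before adjustment over genes, limma adjusted p = 0.151). The Id4 levels behind this value lay in the range of genes not detected in PC.

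Between the first and last passage, Id1 was lower at passage 25 in both tables (-0.40, limma adjusted p = 0.0157, and -1.65, limma adjusted p = 0.00712), while Id2 passed in neither (-0.10 and -0.14). Of all genes, 55.8% and 8.91% were called in this comparison. Id3 was higher in the signal table (0.70) and lower in the value table (-1.03, limma adjusted p = 0.0389). Id4 stood at 0.09 (95% interval -0.15 to 0.33, limma adjusted p = 0.502) and at 1.22 (limma adjusted p = 0.0358). The value-table calls of Id3 and Id4 were each kept in 5 of 18 alternatives. The signal-table call of Id1 was lost without passage 25 replicate 1, the array on which Id1 was not detected (-0.21), without passage 5 replicate 1 (-0.34) and with no background correction (-0.12). The arrays headed passage 25 were the dimmest, and scaling by the median moved the median change of all genes from -0.02 to -0.19. On that scale Id1 stood at -0.53, Id2 at -0.28 and Id4 at -0.08, and Id3 at 0.37, so Id1 and Id2 lay below and Id3 and Id4 above the median of all genes. Of the genes called, 47.3% were higher under quantile normalisation and 28.7% under median scaling. Between passages 15 and 25 Id2 changed sign with that scaling, from 0.18 to -0.10, against a median of all genes of -0.30. The summed linear level of the 3 tested cycling cell markers of 5 also differed by passage. In the signal table it was 2782 to 2889 at passage 5, 2395 to 2467 at passage 15 and 766 to 806 at passage 25, so it was lowest at passage 25. The value table gave 3289 to 4049, 5542 to 6037 and 4342 to 4502, where it was lowest at passage 5. Its part in these results was not tested.

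Over the 10 arrays the highest Pearson r between Id genes was that of Id1 and Id3 in the signal table (0.85, and 0.89 in the value table) and that of Id3 and Id4 in the value table (0.90, and 0.67 in the signal table). Id1 and Id4 stood at 0.73 and 0.69. Id2 ran opposite to Id1 (-0.74 and -0.46) and stood at -0.42 and -0.12 with Id3 and at -0.34 and 0.06 with Id4. These values describe 10 arrays in 5 groups that share their means, so they carry no test.

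The E proteins, the direct partners of Id proteins, were at hand as Tcf4 and Tcf12, since Tcf3 had no probe under its symbol. Both were called higher in OPC than PC in the signal table, by 0.63 for Tcf4 and 0.83 for Tcf12, and in the value table Tcf12 was (1.44) while Tcf4 stood at 0.37. For the mean over iOPC passages against PC both were called higher in the signal table (0.37 and 0.31), and in the value table Tcf4 was lower (-0.92) and Tcf12 stood at 0.25. Tcf12 stood at 7.91 and 7.62 in PC of the signal table and at 9.18 and 9.20 at passage 15. Its levels were 7.65 and 7.97 at passage 5 and 7.26 and 7.23 at passage 25. The mean over passages lay below OPC for both genes in each table. Tcf12 at passage 15 of the signal table lay above OPC (8.70 and 8.50). On the Tcf4 probe every array stood between 11.79 and 13.48 on the log2 scale of its table. With median scaling 0 of the 2 E proteins were called higher in iOPC against PC in the signal table.

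Of 27 lineage bHLH factors 13 were tested. In OPC against PC 7 were called higher and 4 lower in the signal table (median 0.29, all genes 0.02) and 6 and 5 in the value table (median -0.22, all genes 0.09). In iOPC against PC 7 and 5 were called in the signal table and 4 and 6 in the value table. Among all genes 35% were called higher and 32.8% lower in OPC in the signal table, and 30.6% and 25.8% in the value table. For iOPC these shares were 42.3% and 34.1%, and 33% and 26.8%. Olig1, a bHLH factor of the oligodendrocyte lineage, lay at least 38.6-fold above PC in OPC and at least 161-fold above it in iOPC in the signal table, where PC was not well above background, and rose by 12.03 and 9.71 in the value table. An at-least fold sets the bright group against the lowest detected level on each dim array. Hes1, a bHLH repressor of the Notch pathway, was higher in OPC in the signal table (0.78) and lower in the value table (-1.33). Its mean over the iOPC passages was lower in both (-0.81 and -2.30). In the signal table passage 5 stood above PC (9.02 and 9.07, against 8.52 and 8.61). Passages 15 (7.27 and 7.34) and 25 (6.96 and 6.90) stood below it. Hey1, a related repressor, was called higher in both comparisons and tables. In the signal table no PC array detected it, so OPC gets no fold (4.90 and 4.88 there), and iOPC lay at least 5.92-fold higher, while the value table gave changes of 7.73 and 4.80. Twist1 and Twist2, mesenchymal bHLH factors that 4 of the 6 iOPC arrays detected, were called lower than PC in each, Twist1 by a log2 change of -0.75 and -6.96 in OPC and -2.81 and -2.03 in iOPC, and Twist2 by -0.66 and -5.42 in OPC and -1.09 and -4.85 in iOPC. Twist2 at passage 5 of the signal table (7.37 and 7.44) overlapped PC (7.15 and 7.42). It was not detected at passage 15 (4.32 and 4.31) and stood at 6.70 and 7.05 at passage 25.

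BMP ligands act upstream of the Id genes, and 4 of 11 were tested. Bmp4 fell in OPC (at least 3.28-fold in the signal table, where no OPC array detected it, and -4.38 in the value table) and in iOPC (-1.66, detected on 2 of 6 arrays, and -2.24). Its signal-table levels were 6.36 and 6.67 in PC and 5.67 and 5.58 at passage 25, and the arrays of the other groups did not detect it. Bmp7 rose in OPC (2.98 and 3.15) and iOPC (2.28 and 0.83). By passage its signal-table levels were 10.65 and 10.50 at passage 5, 8.94 and 8.88 at passage 15 and 6.17 and 5.91 at passage 25, against 6.37 and 6.09 in PC. The value table held no such course (6.83 and 6.93, 6.84 and 6.55, and 7.18 and 7.34). Bmp1, a protease named with the family, was lower in OPC (-0.67 and -0.87) and in iOPC stood at -0.79 (called) and -0.07 (not called). Bmp5 passed in none of these 4.

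Of 10 BMP receptors and co-receptors 9 were tested. In OPC against PC 6 were called higher and 2 lower in the signal table and 3 and 3 in the value table, and in iOPC 5 and 4, and 2 and 4. Of all genes 35% were called higher and 32.8% lower in OPC in the signal table, and 30.6% and 25.8% in the value table. For iOPC these shares were 42.3% and 34.1%, and 33% and 26.8%. Acvr2b, a type II receptor, rose throughout (2.24 and 3.17 in OPC, 2.06 and 3.16 in iOPC). Rgma, a BMP co-receptor, rose too (1.77 and 2.78, 2.34 and 0.53). Endoglin (Eng), the co-receptor of vascular cells, fell by a log2 change of -4.63 and -7.92 in OPC, and in iOPC by at least 27.0-fold and by -4.70. Its level was 9.72 and 9.48 in PC and it was detected on both OPC arrays and on no iOPC array. Acvr1, a type I receptor, was higher in OPC in the signal table (1.04) and lower in the value table (-1.17), and lower in the mean over iOPC passages in both (-0.53 and -0.54). At passage 5 it overlapped PC in the signal table (8.74 and 8.85, against 8.72 and 8.89). The value table had the same overlap (8.98 and 8.67, against 8.87 and 8.79).

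Of 20 Smads and BMP inhibitors 12 were tested. Among all genes 32.8% were called lower in OPC in the signal table and 25.8% in the value table, and 34.1% and 26.8% in iOPC. In OPC 3 were called higher and 6 lower in the signal table (median -0.31) and 1 and 7 in the value table (median -1.22), and in iOPC 1 and 10 (median -0.59) and 1 and 8 (median -1.58), against all-gene medians for iOPC of 0.08 in both. Smad5, which carries the BMP signal to the nucleus, was the member called higher in all 4 (0.88 and 1.03 in OPC, 0.59 and 1.07 in iOPC). Smad1, its relative, was called in 1 of the 4, iOPC in the signal table (-0.60), and stood at -0.03 and 0.35 in OPC and -0.24 in iOPC in the value table. Smad6, an inhibitory Smad that BMP signalling itself induces, fell by a log2 change of -2.09 and -4.64 in OPC. In iOPC it was called lower too, with values of -2.50 and -1.98, but only 2 of the 6 iOPC arrays detected it, so the first of these rests mostly on levels not above background. Its signal-table levels were 7.19 and 7.25 in PC, 5.08 and 5.17 in OPC and 5.24 and 5.11 at passage 25, and it was not detected at passages 5 and 15. The secreted antagonist Gremlin 1 (Grem1) was detected on the PC arrays alone and fell at least 9.87-fold in OPC and 9.57-fold in iOPC (value table -6.44 and -5.91). Follistatin-like 1 (Fstl1) fell by -1.67 and -3.20 in OPC and by -3.26 and -5.70 in iOPC. Bmper, a secreted BMP modulator, fell by -2.94 in OPC and -2.50 in iOPC (detected on 4 of 6 arrays) in the signal table, and in the value table it stood at -0.92 in OPC (limma adjusted p = 0.152) and fell by -5.96 in iOPC.

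**Figure D3:**
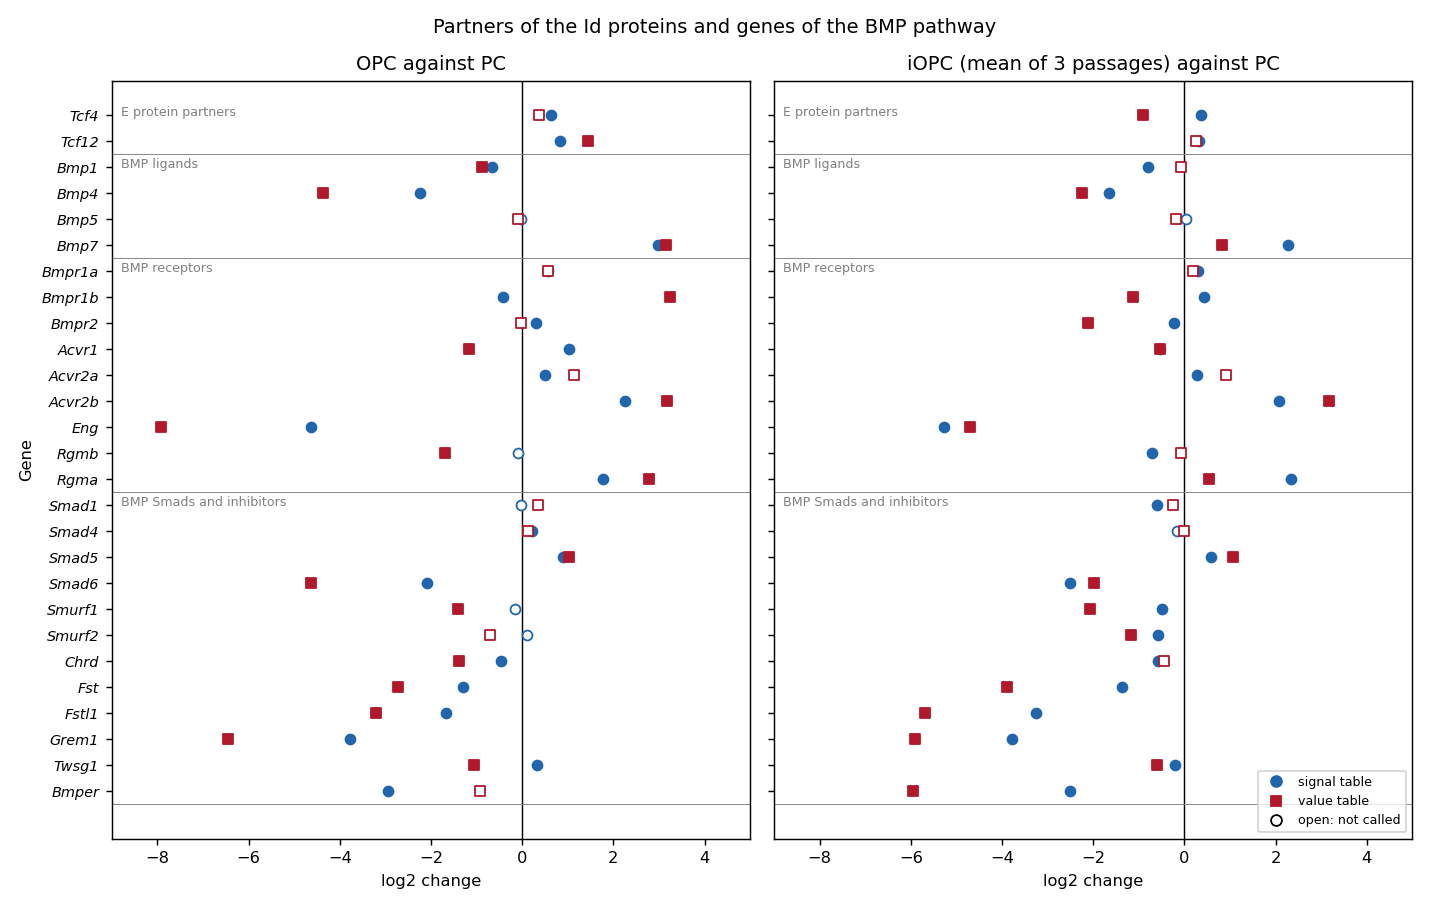
Log2 change against PC of the E protein partners of the Id proteins and of members of the BMP pathway, for both tables. Changes are shown in OPC and in the mean of the iOPC passages, with filled points where limma called the gene. The Id genes themselves are not drawn. Smad6, Grem1, Eng and Fstl1 lie below 0, while Acvr2b, Rgma and Smad5 lie above 0.

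Id2 and Id4 are known to hold back oligodendrocyte maturation, so 13 oligodendrocyte genes were listed, of which 10 were tested. In OPC against PC 8 were called higher and 0 lower in each table (medians 3.77 and 3.88), where 35% and 30.6% of all genes were called higher. In iOPC 10 were higher and 0 lower in the signal table (median 3.99), and 8 were higher and 1 lower in the value table (median 6.37), against 42.3% and 33% of all genes higher. The list mixes stages, since 3 of the 10 (Cspg4, Gpr17 and Nkx2-2) are also OPC markers and Cspg4 is a pericyte marker as well. Of the other 7, all myelin genes, 6 and 5 were higher in OPC and 7 and 5 in iOPC, in the signal and the value table, a split made after the values were seen. Myelin basic protein (Mbp) rose at least 14.6-fold in OPC and at least 12.9-fold in iOPC in the signal table, and by 3.17 and 6.65 in the value table. Myelin-associated glycoprotein (Mag) stood in the signal table at 7.68 and 7.77 in OPC and 12.81 and 12.64 at passage 25 and was not detected in PC or at passage 15. The value table put Mag at 2.66 and 2.81 in OPC and above 9 at all passages. Claudin 11 (Cldn11), a myelin tight junction protein, was the member that fell in iOPC in the value table (-2.20) and rose in the signal table (6.84). Against OPC, 5 were higher and 2 lower in iOPC in both tables, a split that became 9 and 0 in the signal table without both arrays headed passage 15. Among all genes 31.2% were higher and 25.6% lower in that comparison in the signal table, and 28.4% and 26.9% in the value table.

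All 5 listed genes of cell cycle arrest, which E proteins are known to activate and Id proteins to oppose, were tested. In OPC against PC 2 were higher and 3 lower in the signal table and 0 and 4 in the value table, and in iOPC 1 and 4, and 0 and 3. Among all genes 35% were called higher and 32.8% lower in OPC in the signal table, and 30.6% and 25.8% in the value table. For iOPC these shares were 42.3% and 34.1%, and 33% and 26.8%. Cdkn1a, which encodes p21, fell in each (-1.98 and -0.98 in OPC, -1.31 and -2.11 in iOPC). Its signal-table levels were 11.29 and 11.32 in PC, and the other 8 arrays spanned 9.31 to 10.32. Cdkn2a, which encodes p16 and p19Arf, fell at least 35.3-fold in OPC in the signal table and by -1.01 in the value table (limma adjusted p = 0.0447). Its signal-table level at passage 15 was 9.17 and 9.19, near the 9.89 and 10.00 of PC, while it was not detected in OPC or at passages 5 and 25. Cdkn1b, which encodes p27, rose in the signal table (0.68 and 0.81), and its value-table changes of 1.76 (limma adjusted p = 0.103) and 0.36 were not called.

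Markers of other cell types differed between the groups beside the Id genes, and their part in the Id results was not tested. Of 9 endothelial markers 2 were tested, Emcn and Flt1, and Pecam1, Cdh5, Kdr, Tek, Tie1 and Esam were not detected on 2 arrays. The summed level of the 2 on the linear scale was 2212 to 2321 in PC, 67.5 to 79.5 in OPC, 47.1 to 51.8 at passage 5, 225 to 230 at passage 15 and 229 to 237 at passage 25. The value table gave 2621 to 2768 in PC, 215 to 237 in OPC and 5.56 to 10.2 over the iOPC columns. PC was highest in both tables. In the other groups of the signal table Flt1 was the only one of the 2 that was detected.

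Of the 6 tested pericyte markers 2 were called higher in OPC and in iOPC than in PC in both tables. These were Mcam (6.00 and 6.00 in PC, 11.33 and 11.17 in OPC of the signal table) and Cspg4 (5.82 and 5.71, and 9.66 and 9.43). The other 4, Pdgfrb, Anpep, Acta2 and Notch3, were called lower, except Notch3 in OPC of the value table (0.42, limma adjusted p = 0.475). Among all genes 35% were called higher and 32.8% lower in OPC in the signal table, and 30.6% and 25.8% in the value table. For iOPC these shares were 42.3% and 34.1%, and 33% and 26.8%. Pdgfrb, which defines pericytes, was detected on both PC arrays (8.53 and 8.21), on 1 OPC array and on no iOPC array. The summed pericyte level in the signal table was 2965 to 3063 in PC, 3538 to 3927 in OPC, 2871 to 2961 at passage 5, 1119 to 1177 at passage 15 and 2445 to 2471 at passage 25. In the value table OPC had the lowest sum (1409 to 1436) and passage 5 the highest (4864 to 5312), against 3825 to 3837 in PC.

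For fibroblast markers the calls in OPC against PC turned between the tables. Of 6 tested, the signal table had 5 up and 1 down, and the value table had 1 up (Pdgfra, also an OPC marker) and 5 down. The marker counts here stand beside shares of all genes called higher and lower. In OPC these were 35% and 32.8% in the signal table, and 30.6% and 25.8% in the value table. For iOPC they were 42.3% and 34.1%, and 33% and 26.8%. Lumican (Lum), a matrix proteoglycan, was not detected in PC and stood at 12.07 and 11.86 in OPC of the signal table, and the fibroblast sum was 2410 to 2644 in PC and 11453 to 11864 in OPC. The sum was also higher in OPC in the value table (2307 to 2480, and 7929 to 8604). It rested there on Pdgfra (12.95 and 13.07 in OPC on the log2 scale), while the other 5 stood between 0.92 and 2.39 in OPC. For iOPC 2 were higher and 4 lower in the signal table and 3 and 3 in the value table. All 3 tested Schwann cell markers of 6 were higher in OPC and in iOPC in the signal table, among them Egr2 (6.68 and 6.89 in PC, 11.62 and 11.69 in OPC). The value table had 1 lower and none higher in OPC, and in iOPC 2 were higher and 1 lower. Both tested neuron markers of 6 were called higher in OPC and iOPC in both tables. Of 9 astrocyte markers, all tested, 5 were higher and 2 lower in OPC and 8 and 1 in the mean over iOPC passages in the signal table, and 7 and 1, and 3 and 2, in the value table. By passage the signal table had 4 higher and 2 lower at passage 5, 7 and 1 at passage 15 and 4 and 3 at passage 25. Aqp4 and Slc1a2 were detected there at passage 15 alone. The 8 tested OPC markers of 9 summed to 770 to 826 in PC and to at least 5924 in all other groups of the signal table. None of 7 microglial markers was detected on 2 arrays.

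The genes most alike to each Id gene over the 10 arrays differed between the tables. For Id1 they were Ier5l (r = 0.995), Pcdh20 (0.989) and Lhfp (0.978) in the signal table and Timp3 (0.985), Lgals3 (0.982) and Adam15 (0.979) in the value table. Lhfp stood at 0.962 in the value table too, while Ier5l stood at 0.598 and Pcdh20 at 0.540. For Id2 they were Reep1 (0.997), Sppl2b (0.994) and Slc6a9 (0.993) in the signal table, and Tnc (0.984), Daam1 (0.979) and Nlgn3 (0.974) in the value table. For Id3 they were Noct (0.984), Itprid2 (0.951) and Samd4 (0.943) in the signal table, and Asap1, Vcam1 (0.989 each) and Wnt5a (0.988) in the value table. Noct reached 0.925 and Itprid2 0.928 in the value table, and Samd4 stood at -0.102. For Id4 they were Rcan2 (0.979), Myo5a (0.977) and Zswim4 (0.965) in the signal table and Adcy2 (0.997), Atp1b1 (0.986) and Fam131b (0.985) in the value table. Likeness in 10 arrays of 5 groups describes these arrays alone.

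**Figure D4:**
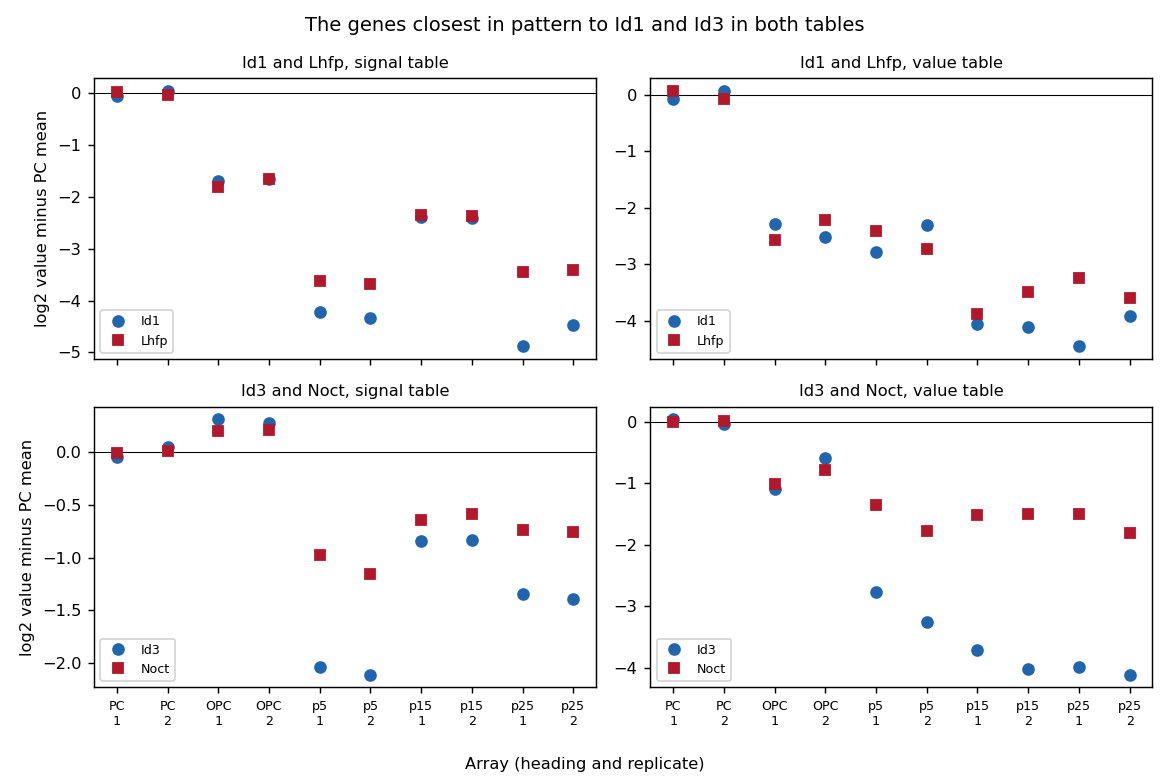
Log2 level minus the PC mean on each array for Id1 with Lhfp and for Id3 with Noct, in the signal and the value table, a pair of genes chosen for drawing after their values were seen. Lhfp lies between -3.69 and -3.40 at passages 5 and 25 in the signal table, where Id1 lies lowest, and Noct is near PC in OPC of the signal table (0.20 and 0.21), as Id3 is.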

How the data were processed

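Total RNA was labelled with biotin and hybridised to Illumina bead arrays, per the labels, which also name a kit with another amplification round for sorted transplanted cells without saying whether any of these arrays used it. The deposited signal table holds a non-normalized intensity per probe and array, per the file headers, beside the deposited detection p-value. The authors' value table holds log2 values whose columns share their quantiles (median 3.29), so they were quantile-normalized before they were deposited. On the PC columns their slope on log2 signal was 0.989 over 1760 probes with a signal over 1000. No gene centring was visible, and the background correction behind them is not given in the sources used here. The submitters' processing notes list the tools BeadStudio 3.2, RMA and lumi without saying what each did.

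Signals were background-corrected from the detection p-values (limma 3.58.1, neqc, offset 16, in R 4.3.3) and quantile-normalized, and log2 was taken. Of 25697 probes 23978 had 1 gene symbol, 0 several and 1719 none. Filtering on detection (p-value under 0.01 on 2 arrays or more) kept 14539 probes, and for 2740 genes with several the probe with the highest mean was used, which left 9778 genes. Group means were fitted to each table by limma's lmFit and eBayes, with 5 residual degrees of freedom, for 12 two-sided contrasts and an F test over passages, and p-values were adjusted over genes by Benjamini-Hochberg. The script was tested on simulated data. The number of arrays limits the precision.

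Members and gene lists were chosen with earlier results of these data known. Named genes are the 4 members, list members with the largest changes (at most 4 per list and contrast, plus a few that show a difference between tables, chosen after their values were seen), and the 3 genes with the highest r to each member among genes with a comparable range over the arrays. Alternatives changed the background correction, the scaling, the detection filter, the rule for several probes or the variance model, added the replicate block, or left out each array in turn. Leaving out both arrays of a heading was added after seeing the data. Figures used matplotlib 3.10.9 in Python 3.11.15.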

Additional observations from a re-analysis of the deposited data

Results flagged for a closer look

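The change against PC differed between passages by the F test for 4 Id genes in the signal table and for 2 in the value table, among 81.4% and 8.94% of all genes for which it did. In the signal table the largest step between passages was -2.29 for Id1 (passage 25 against 15, limma adjusted p of the F test 6.37e-08), -0.29 for Id2 (passage 15 against 5, 0.0209), 1.23 for Id3 (passage 15 against 5, 3.32e-07) and 2.08 for Id4 (passage 15 against 5, 3.11e-08). In the value table it was -1.65 for Id1 (passage 25 against 5, limma adjusted p of the F test 0.0097) and 1.32 for Id4 (passage 25 against 15, 0.0384). The signal columns headed passage 15, on which 4 of these 6 values rest, are those that matched the value columns headed OPC. The Id4 step in the value table lies between levels in the range of genes not detected in PC.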

How the results depend on the processing

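Against PC, the direction and the call of Id1 and Id2 held under every alternative run in both tables, except that requiring detection on all 10 arrays drops Id1 and gives it no value. The size of Id1 in iOPC against PC in the signal table ran from -4.47 to -2.54, lowest in size with no background correction.

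In the signal table, Id3 in OPC against PC stood at 0.20 with median scaling and 0.25 with no normalization between arrays and no longer passed. For iOPC against OPC, Id2 did not pass with the mean over probes (-0.18) or without both arrays headed passage 15 (-0.17), with 1 array left out it ran from -0.28 to -0.21, and Id4 did not pass without both arrays headed passage 5 (-0.16). In passage 25 against 5, Id1 did not pass with no background correction (-0.12) and ran from -0.63 to -0.21 with 1 array left out. Id4 changed sign with median scaling (-0.082) and no normalization (-0.25) and ran from -0.045 to 0.23 with 1 array left out. With no normalization Id2 passed (-0.44) and Id3 did not (0.21), on a median of all genes of -0.36. In passage 25 against 15, Id2 changed sign with median scaling (-0.10) and no normalization (-0.35), and in passage 5 against OPC with the mean over probes (0.0034). Median scaling moved the share of calls that were higher from 50.8% to 36.5% in passage 25 against PC, from 48.1% to 27.3% against OPC and from 46.6% to 32.6% against passage 15.

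In the value table, the changes of Id3 (-1.03) and Id4 (1.22) in passage 25 against 5 were the same but no longer passed with no filter, with the replicate block and without both arrays headed passage 15 or OPC, and Id4 also with trend and robust variances. With 1 array left out they ran from -1.28 to -0.78 and from 0.86 to 1.58. Id3 in OPC against PC ran from -1.10 to -0.60. Signs turned with 1 array left out for Id1 in passage 5 against OPC (-0.37 to 0.11, turned to 0.11 without passage 5 replicate 1) and in passage 25 against 15 (-0.37 to 0.17), and for Id4 in passage 15 against 5 (-0.46 to 0.26, and 0.08 without passage 15 replicate 1). None of these 3 had passed. The count of genes called moved by over 1.5 times in this table alone. In passage 15 against 5 it went from 1009 to 449 with no filter, 1675 with trend and robust variances, 3004 without passage 5 replicate 2, and 283 (passage 15 replicate 1) to 718 without any other single array. In passage 25 against 5 it went from 871 to 396, 1366 and 2622 under the same settings, and 252 (passage 25 replicate 2) to 750 without any other single array. In passage 25 against 15 it went from 12 to 46 with trend and robust variances and 6 with detection on all 10 arrays, and ran from 2 (without passage 25 replicate 2) to 65 (without either passage 5 array), and in OPC against PC from 5518 to 3616 with that filter, which tests fewer genes.

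Replicate numbers did not pair the arrays (correlations of deviations from -0.08 to 0.13). The replicate block ended the Id2 call in passage 25 against OPC of the signal table (-0.21, limma adjusted p = 0.0570) and the calls of Id3 (0.0560) and Id4 (0.0564) named above, and no other Id call. The causes of these changes were not tested. Levels near background, as Id1 at passage 25, have the least signal over background. Id4 in the iOPC columns of the value table stood in the range of genes not detected in PC. The heading under which a value stands depends on the table.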
